A study of Mus musculus with 12 samples.

Results

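Among the small RNAs counted in adipose tissue extracellular vesicles (EVs, membrane particles that cells release) and in hippocampus were 9 mature miRNAs known from red blood cells or from liver. They were chosen by name. The 7 red cell miRNAs were mmu-miR-451a, mmu-miR-144-3p, mmu-miR-144-5p, mmu-miR-486a-5p, mmu-miR-486a-3p, mmu-miR-486b-3p and mmu-miR-363-3p, and the 2 liver miRNAs were mmu-miR-122-5p and mmu-miR-122b-3p. All 9 had an entry among the 1084 counted in EVs and the 1158 counted in hippocampus, and all 9 passed the filter on low counts in both.

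The 12 libraries were made from wild-type (WT) male mice of the C57BL/6J strain after 12 weeks on chow or on a diet rich in fat (HFD). Each diet had 3 EV libraries and 3 hippocampus libraries. The chow hippocampus counts are headed LFD in the deposited table, and their assignment to chow is an inference. The labels number the libraries and say nothing of separate or pooled animals, so the p-values here speak of spread among libraries, which can be technical in part. EV libraries were of adipose tissue as a whole, and what share of the particles came from fat cells, blood cells or other cells is not given in the sources used here.

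A miRNA is a short RNA that guides an Argonaute protein to messenger RNAs and lowers their output, and its seed, bases 2 to 8 from the 5′ end, sets most of the pairing. miR-451a and miR-144 are made from 1 primary transcript that GATA1, the master regulator of red cell development, switches on, and miR-451a skips Dicer and is cut by Ago2 instead. miR-486 lies inside Ank1, the gene of a red cell membrane protein, and is also high in muscle, while miR-122 is the dominant miRNA of hepatocytes, where it acts on cholesterol and lipid metabolism. Both kinds are also found in blood, the former in its cells and the latter in plasma.

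RefSeq's mature sequences (GRCm38.p6) matched 4 of the 9 by name. They are shown 5′ to 3′ with the seed in capitals because the seeds separate these miRNAs by their possible targets, and because the last shares its seed with other measured miRNAs.
mmu-miR-451a: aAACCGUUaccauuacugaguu
mmu-miR-144-3p: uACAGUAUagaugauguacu
mmu-miR-144-5p: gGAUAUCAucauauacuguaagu
mmu-miR-363-3p: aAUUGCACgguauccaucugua
No other mature mouse miRNA of the same reference had the seed of miR-451a, miR-144-3p or miR-144-5p. The seed of miR-363-3p was shared by 5 others, of which 4 were tested here and are given as a family with the same seed capitals.
mmu-miR-25-3p: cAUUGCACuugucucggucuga
mmu-miR-32-5p: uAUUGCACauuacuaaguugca
mmu-miR-92a-3p: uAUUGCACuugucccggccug
mmu-miR-92b-3p: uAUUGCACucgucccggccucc

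In GRCm38 the miR-144 hairpin lies at chr11:78073005-78073070 and the miR-451a hairpin at chr11:78073170-78073241, both on the plus strand and 99 bases apart. The first lies between genes, and the second overlaps only Mir451b on the other strand. Within its hairpin of 72 bases the mature miR-451a runs from base 17 to base 38. The miR-486a hairpin (chr8:23142555-23142682, plus strand) and the miR-486b hairpin, listed as Mir3107 (chr8:23142573-23142662, minus strand), overlap by 90 bases within an intron of Ank1. The miR-363 hairpin lies between genes on the minus strand at chrX:52741693-52741767.

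Several of the 9 entries held the same reads. The counts of the 3 miR-486 entries lay within 4.49% of each other in every EV library and within 3.67% in every hippocampus library, and the 2 miR-122 entries had identical counts in all 12. How the authors assigned reads that match several miRNAs is not given in the sources used here. The 9 members are therefore 6 separate measurements, and miR-486a-5p and miR-122-5p stand below for their sets unless another is named. The miR-486 or miR-122 set counts as 3 or 2 members in the counts and medians that follow.

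Libraries held 1825488 to 5941955 counts in EVs and 2331091 to 12874600 in hippocampus, where every HFD library (at least 11143775 counts) was deeper than every chow library (at most 5723918). Depth and diet cannot be told apart there. The neuronal miR-124-3p was at 1735 to 6588 CPM (counts scaled to the library's total) in hippocampus and at most 0.798 CPM in EVs. All 6 brain miRNAs listed were lower in EVs, where miR-128-3p and miR-218-5p still averaged 1283 and 1035 CPM in chow. Of the 5 adipose miRNAs listed, 4 were higher in EVs than in hippocampus in each diet. So were 232 of all 519 miRNAs compared in chow and 261 in HFD. The exception, miR-143-3p, was at 1786 to 11280 CPM in EVs and at 13210 to 24650 CPM in hippocampus. Levels below are CPM scaled by TMM (trimmed mean of M values) within EVs or within hippocampus, and 3 counts, the floor used here, equal 0.216 to 2.0 CPM depending on the library. In bulk samples such as these, fewer cells or particles of a kind and less RNA in each of them cannot be told apart.

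In hippocampus, miR-451a was lower on HFD in every library. Chow libraries 1, 2 and 3 held 245.8, 197.6 and 553.8 CPM, and the HFD libraries held 73.6, 115.4 and 50.8 CPM. The lowest chow library stood above the highest HFD library, and the groups did not overlap. How many of all miRNAs had groups that did not overlap was not counted. Overlap is therefore a description, here and below. The means were 332 ± 193 and 79.9 ± 32.8 CPM (SD, n = 3), and miR-451a fell by 2.05 on the log2 scale (SE 0.46, adjusted p = 0.0285, edgeR's quasi-likelihood test over all 552 miRNAs tested). An adjusted p under 0.05 is called here. The call was lost in 4 of the 6 fits that left out 1 library, namely without chow library 1 (−2.20, adjusted p = 0.0542), chow library 2 (−2.24, 0.0548), HFD library 1 (−1.94, 0.125) or HFD library 3 (−1.64, 0.108). Without chow library 3, the highest of all, the difference was −1.40 and stayed called (0.0237). Over the 15 alternatives run for it, the adjusted p lay between 0.000379 and 0.125.

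The liver miRNA miR-122-5p was lower still in the HFD hippocampus. Its levels were 52.4, 8.75 and 17.6 CPM in the chow libraries and 3.29, 2.46 and 3.17 CPM in the HFD libraries. Chow libraries spread over 5.99-fold and HFD libraries over 1.34-fold, and the groups did not overlap. It fell by 3.15 on the log2 scale (SE 0.62, adjusted p = 0.0235), from 26.3 ± 23.1 to 2.98 ± 0.449 CPM (SD, n = 3). Without chow library 1, the highest, the difference was −2.06 and stayed called (adjusted p = 0.0317). The call was lost without HFD library 1 (−3.12, adjusted p = 0.0908) or HFD library 3 (−3.04, 0.0785), and the adjusted p lay between 1.39e-05 and 0.0908 over its 15 alternatives.

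The partners of miR-451a in the red cell set did not share that call. miR-144-3p stood at 8.80, 6.30 and 6.25 CPM in the chow hippocampus and at 0.659, 10.7 and 2.09 CPM in the HFD hippocampus. HFD library 2 was the highest of all 6 while the other HFD libraries were the lowest, and the difference was −0.68 (SE 0.84, adjusted p = 0.605). Without HFD library 2 it was −2.22 (adjusted p = 0.0657, the lowest of all alternatives, which reached 0.959). Its opposite arm, miR-144-5p, followed the same order within the HFD libraries, with 0.329, 3.18 and 1.15 CPM against 3.96, 1.58 and 6.25 CPM in chow, and differed by −1.19 (SE 0.80, adjusted p = 0.349). These levels rest on 8 to 135 counts of the 3p arm and 4 to 40 counts of the 5p arm in a library.

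miR-486a-5p stood at 58.3, 41.8 and 76.7 CPM in the chow hippocampus and 52.3, 33.1 and 25.9 CPM in the HFD hippocampus. The groups overlapped, and the difference was −0.66 (SE 0.34, adjusted p = 0.231). miR-363-3p, of the X-linked miR-106a-363 cluster, was near the floor with 1 to 19 counts in a library, at 1.10, 1.05 and 0.568 CPM in chow and 1.40, 1.51 and 0.577 CPM in HFD, so only a large difference was detectable at this depth. It differed by 0.24 (SE 0.54, adjusted p = 0.805).

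In all, 3 of the 9 members (33.3%) were called in hippocampus, all 3 lower and coming from 2 separate measurements. Over all 552 miRNAs, 11.8% were called in either direction and 7.43% were called lower. DESeq2 called 19.7% of them, limma-voom 13.0%, and 29.7% had an unadjusted edgeR p under 0.05, which are the backgrounds for the marker counts given further on. The member median was −0.68 and 8 of 9 members were below 0, with the miR-486 and miR-122 reads repeated. Only miR-363-3p was above 0. The median of all miRNAs was −0.13, and 243 of the 552 were above 0.

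**Figure D1:**
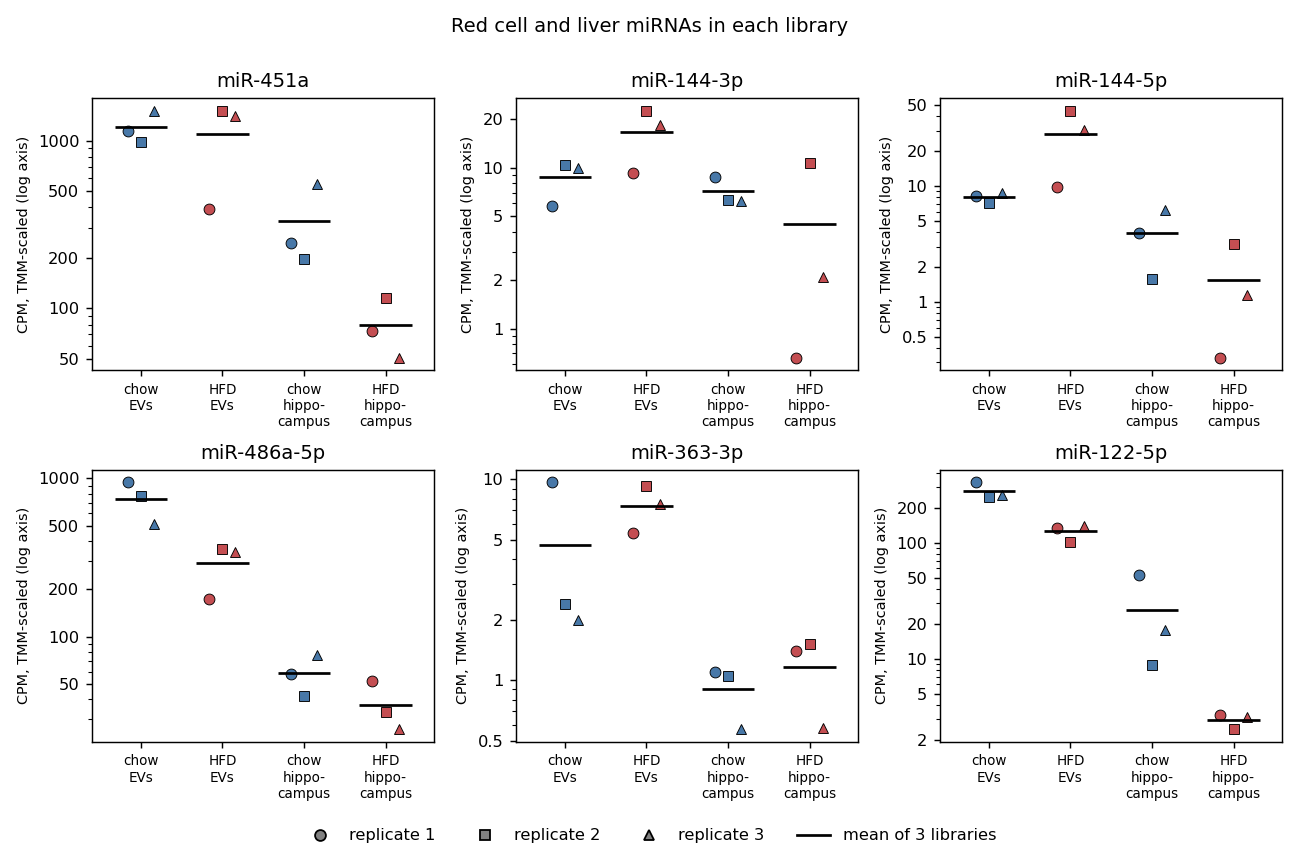
TMM-scaled CPM (log axis) of the 6 separately measured red cell and liver miRNAs in each of the 12 libraries, with blue symbols for chow, red for HFD, 1 symbol shape per replicate number and a bar at each group's mean (n = 3). miR-451a and miR-122-5p do not overlap between diets in hippocampus, and miR-486a-5p, miR-144-5p and miR-122-5p do not overlap in EVs. The share of all miRNAs without overlap was not counted.

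The EV levels were read in the same way. miR-451a stood at 1142, 980.5 and 1509 CPM in the chow EVs and 393.3, 1511 and 1393 CPM in the HFD EVs. HFD library 1 was the lowest of all 6, and the other HFD libraries lay at or near the top of the chow range. The difference was −0.14 (SE 0.49, adjusted p = 0.921), and without HFD library 1 it was 0.26 (adjusted p = 0.71, and 0.691 to 0.985 over all alternatives). That library was also the deepest of the EVs, with 5941955 counts, and a part of its depth in this value was not tested.

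miR-486a-5p was lower in all HFD EV libraries. Its levels were 944.7, 773.3 and 510.6 CPM in chow and 172.8, 357.7 and 341.5 CPM in HFD, with no overlap. The difference of −1.35 (SE 0.40, adjusted p = 0.0838) was not called, and the other miR-486 entries gave −1.34 and −1.35. Neither miR-451a nor miR-486a-5p was thus called in EVs. Values of both diets were mixed for the former and not for the latter. That is a description only, as overlap was not counted over all miRNAs.

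Of the members, the 2 arms of miR-144 had the largest positive differences in HFD EVs. miR-144-5p stood at 8.23, 7.18 and 8.68 CPM in chow and at 9.76, 44.8 and 30.5 CPM in HFD. The chow libraries were close together, every HFD library was above them, and HFD library 1 was only just so. The difference was 1.80 (SE 0.57, adjusted p = 0.0956). For miR-144-3p the levels were 5.81, 10.4 and 10.01 CPM in chow and 9.30, 22.6 and 18.3 CPM in HFD, which overlapped, with a difference of 0.92 (SE 0.46, adjusted p = 0.261). Counts in EV libraries ran from 13 to 97 for the 5p arm and from 12 to 60 for the 3p arm.

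miR-363-3p stood at 9.68, 2.39 and 2.0 CPM in chow EVs and 5.42, 9.24 and 7.52 CPM in HFD EVs, on 3 to 35 counts, and differed by 0.61 (SE 0.66, adjusted p = 0.612). Of the miRNAs with its seed, miR-25-3p differed by −0.06, miR-32-5p by 0.42, miR-92a-3p by −0.62 and miR-92b-3p by −0.34 in EVs. In hippocampus these 4 differed by −0.71, 0.15, −0.37 and 0.12. By edgeR 0 of the 4 were called in either diet comparison. At an unadjusted p under 0.05 there were 0 in EVs and 1 in hippocampus, miR-25-3p, which DESeq2 and limma-voom called.

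miR-122-5p was lower in the HFD EVs, at 331, 248.2 and 258.3 CPM in chow against 133.9, 102.1 and 139.5 CPM in HFD. The lowest chow library exceeded the highest HFD library (means of 279 ± 45.2 and 125 ± 20.2 CPM, SD, n = 3). The difference of −1.16 (SE 0.30) had an adjusted p of 0.0570, just above the threshold.

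By edgeR 0 of the 9 members were called in EVs, while 4.37% of all 389 miRNAs were. At an unadjusted p under 0.05 there were 6 members, those of the miR-486 and miR-122 sets and miR-144-5p, against 25.4% of all miRNAs. DESeq2 called those 6, with adjusted p of 0.0302 for miR-144-5p, 0.0282 for miR-486a-5p and 0.00691 for miR-122-5p, and limma-voom called 0. Over all miRNAs DESeq2 called 14.1% and limma-voom 6.17%. Without the filter on low counts 4 were called, the miR-486 set and miR-144-5p, with 5.17% of all miRNAs called. When the 12 libraries were fitted together 3 were called, the miR-486 set, with 7.32% of all. Over all alternatives the adjusted p ran from 0.00318 to 0.329 for miR-144-5p, from 0.0282 to 0.243 for miR-486a-5p and from 0.00691 to 0.225 for miR-122-5p. The member median was −1.16, and that of all miRNAs −0.13. Entries that repeat the miR-486 and miR-122 reads weigh on the member median. Below 0 were 6 members, those of the 2 sets and miR-451a. Above 0 were miR-144-3p, miR-144-5p and miR-363-3p, and 169 of all 389 miRNAs.

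**Figure D2:**
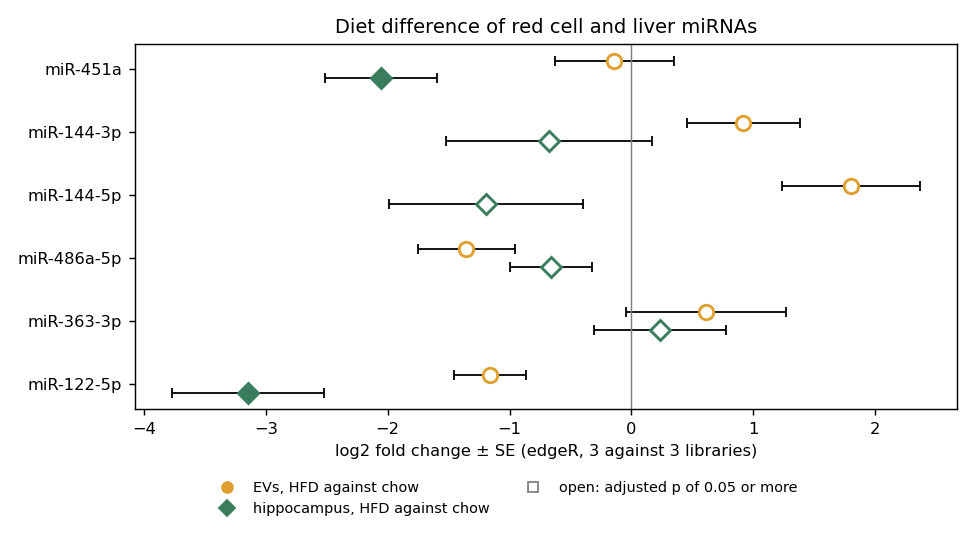
Log2 fold change of HFD against chow with its SE, from edgeR fits of 3 against 3 libraries, for EVs (circles) and hippocampus (diamonds). Filled symbols have an adjusted p under 0.05, which only miR-451a (−2.05) and miR-122-5p (−3.15) in hippocampus reached.

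The difference between the 2 diet effects was tested in 1 fit of all 12 libraries. It was called for 0 of the 9 members by edgeR, DESeq2 or limma-voom, while edgeR called 5.78% of the 519 miRNAs tested. At an unadjusted edgeR p under 0.05 there were 4 members, against 117 of the 519 miRNAs. They were miR-451a, miR-144-5p and the miR-122 pair. miR-451a had a difference of 1.89 (SE 0.65, adjusted p = 0.0991), higher in EVs. For miR-144-5p it was 3.04 (SE 0.996, adjusted p = 0.0876) and for miR-122-5p 2.11 (SE 0.71, adjusted p = 0.0898), whereas miR-486a-5p had −0.63 (SE 0.53, adjusted p = 0.517). The diet differences of the members are thus not shown to differ between EVs and hippocampus. Leaving out a single library brought up to 2 members past the threshold. They were miR-451a (2.22, adjusted p = 0.0273) and miR-144-5p (3.39, 0.042) without HFD EV library 1, the miR-122 pair (2.39, 0.0412) without chow hippocampus library 2, and miR-144-3p (3.29, 0.0216) and miR-144-5p (4.02, 0.0201) without HFD hippocampus library 2. Over all alternatives the adjusted p ran from 0.0273 to 0.339 for miR-451a, from 0.0201 to 0.289 for miR-144-5p, from 0.0216 to 0.665 for miR-144-3p and from 0.0412 to 0.295 for miR-122-5p.

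Between sample types the members were higher in EVs. In chow, 7 of 9 members were called and all 7 were higher, while 79.4% of all miRNAs were called and 34.5% were called higher. The log2 difference was 2.24 (SE 0.48, adjusted p = 0.000461) for miR-451a, 3.97 (SE 0.42, adjusted p = 4.19e-07) for miR-486a-5p and 3.63 (SE 0.54, adjusted p = 1.65e-05) for miR-122-5p. miR-363-3p was 2.43 higher (SE 0.71, adjusted p = 0.00503), a call lost without chow EV library 1, the highest of its group (1.42, adjusted p = 0.0893, and 0.000317 to 0.0893 over all alternatives). miR-144-3p (0.51, SE 0.79, adjusted p = 0.565) and miR-144-5p (1.44, SE 0.74, adjusted p = 0.0859) were not called. The latter was called without HFD hippocampus library 1 (1.55, 0.0359) or 2 (1.55, 0.0335) and with shared reads kept once (1.72, 0.0447), and its adjusted p was at most 0.22 over all alternatives. The median of all miRNAs was −0.52 in this contrast.

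In HFD mice all 9 members were called higher in EVs, and here 81.5% of all miRNAs were called and 38.9% were called higher. miR-122-5p differed most, by 5.75 (SE 0.60, adjusted p = 3.26e-07), followed by miR-144-5p with 4.47 (SE 0.73, adjusted p = 4.02e-05) and miR-451a with 4.13 (SE 0.52, adjusted p = 2.06e-06). For miR-486a-5p the difference was 3.34, for miR-363-3p 2.98 and for miR-144-3p 2.17 (SE 0.76, adjusted p = 0.0163). The last was no longer called without HFD EV library 2 (1.57, adjusted p = 0.0886) or HFD hippocampus library 3 (1.86, 0.0555), nor without the filter on low counts (1.65, 0.0648), and its adjusted p ran from 4.18e-05 to 0.0886 over all alternatives. The contrast in chow and that in HFD come from different libraries, and the test of their difference is the one above.

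All members together took small shares of the counts. With reads of a shared set counted once, the red cell members made up 0.178 ± 0.0296% of the counts of chow EVs and 0.163 ± 0.0874% of those of HFD EVs (SD, n = 3). In hippocampus the share was 0.0362 ± 0.0119% in chow and 0.0132 ± 0.00485% in HFD, and the lowest chow library (0.0248%) stood above the highest HFD library (0.0185%). miR-122 made up 0.0253 ± 0.00621% of the chow EV counts and 0.0139 ± 0.00158% of the HFD EV counts, and 0.00267 ± 0.00273% and 0.000315 ± 3.87e-05% of those of chow and HFD hippocampus. These shares were summed over chosen members, and no p is given for them.

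The ratio of 2 members within a library does not depend on how the library is scaled. Counts of miR-144-5p per 100 counts of miR-451a were 0.575 to 0.733 in chow EVs and 2.19 to 2.97 in HFD EVs, a ratio of geometric means of 3.76 with no overlap. Both miRNAs come from 1 primary transcript. For miR-144-3p they were 0.509 to 1.06 and 1.32 to 2.36, again with no overlap (2.35-fold). In hippocampus the ratios of both arms overlapped between diets (1.25-fold for the 5p arm and 1.39-fold for the 3p arm).

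The geometric mean of miR-486a-5p against miR-451a was lower on HFD in EVs and higher on HFD in hippocampus. In EVs there were 33.8 to 82.7 counts per 100 of miR-451a in chow and 23.7 to 43.9 in HFD, which overlapped. In hippocampus there were 13.9 to 23.7 in chow and 28.7 to 71.0 in HFD, with no overlap and a ratio of 2.46. This ratio thus ran from 13.9 to 82.7 counts per 100 over these libraries. Whether its diet difference differs between EVs and hippocampus was not tested.

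The liver member was set against both red cell references. Per 100 counts of miR-451a, miR-122-5p had 17.1 to 29.0 in chow EVs and 6.76 to 34.0 in HFD EVs, and 3.18 to 21.3 and 2.13 to 6.25 in chow and HFD hippocampus. Both pairs of groups overlapped. Per 100 counts of miR-486a-5p it had 20.9 to 89.8 in chow hippocampus and 6.30 to 12.3 in HFD hippocampus, 4.22-fold lower on HFD with no overlap, whereas the EV groups overlapped.

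Each ratio was tested by an exact two-sided permutation test of its logarithm, 14 tests in all. With 3 against 3 libraries the smallest p that this test can give is 0.1, and 5 ratios reached it (adjusted p = 0.28 for each). None of the ratios can therefore pass the threshold in this design. The 5 were the ratios without overlap given above and that of miR-363-3p to miR-451a in hippocampus. The latter was 4.87-fold higher on HFD with no overlap, on 1 to 19 counts of miR-363-3p, and overlapped in EVs. The ratio of miR-144-3p to miR-144-5p overlapped between diets in both sample types.

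**Figure D3:**
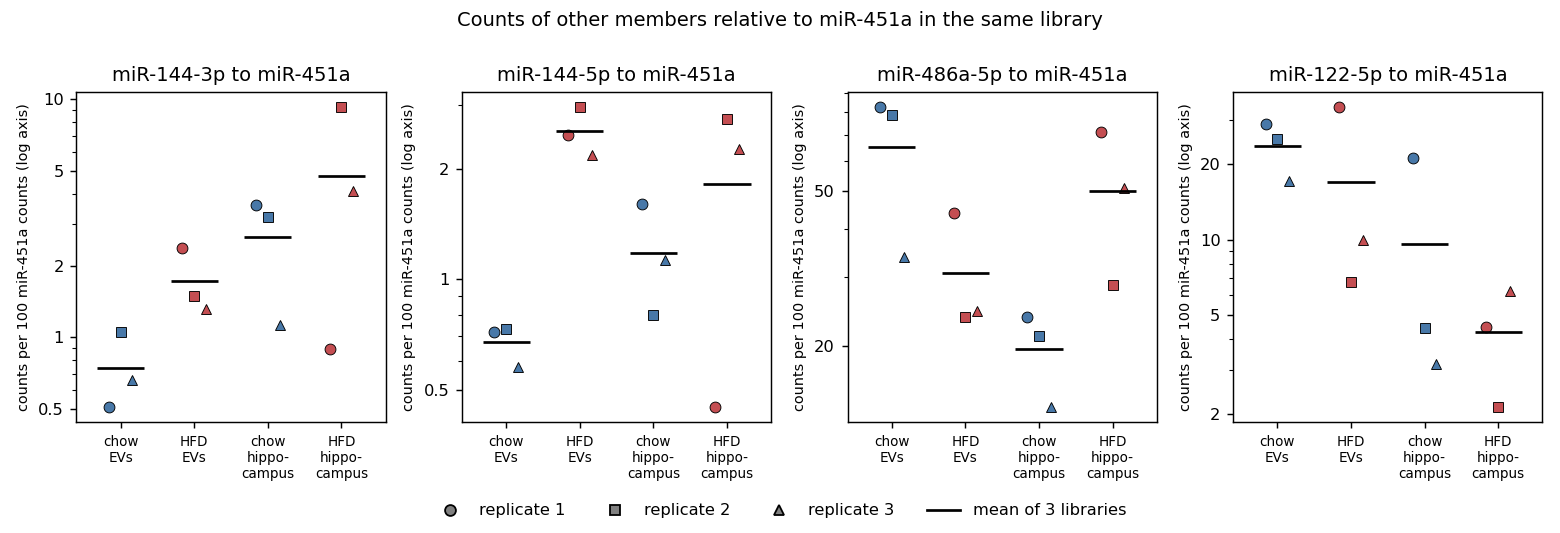
Counts of miR-144-3p, miR-144-5p, miR-486a-5p and miR-122-5p per 100 counts of miR-451a in the same library (log axes), with blue for chow, red for HFD and a bar at the mean of 3 libraries. The ratio of miR-144-5p runs from 0.575 to 0.733 in chow EVs and from 2.19 to 2.97 in HFD EVs, and that of miR-486a-5p is at most 23.7 in chow hippocampus and at least 28.7 in HFD hippocampus.

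Raw counts were set beside depth, since the HFD hippocampus libraries were the deeper ones. Mean totals there were 3.0-fold higher in HFD than in chow, and the median tested miRNA had 2.98-fold higher raw counts. miR-451a had 975 to 1129 raw counts in the chow libraries and 704 to 1453 in the HFD libraries, so its mean raw count was nearly the same (ratio 0.947). The mean raw count of miR-486a-5p was 2.21-fold higher in HFD, and miR-122-5p had 31 to 238 raw counts in chow and 31 to 44 in HFD (ratio 0.361). Only 18 of the 552 miRNAs had a lower ratio than miR-451a and 5 a lower one than miR-122-5p. A part of depth in the hippocampal differences was not tested.

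In EVs the raw counts of miR-451a spanned 2261 to 3271, or 1.45-fold, although library totals spanned 3.26-fold. HFD EV library 1 held 2538 of them in the deepest library. miR-486a-5p had 765 to 1952 raw counts in chow and 727 to 1115 in HFD.

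**Figure D4:**
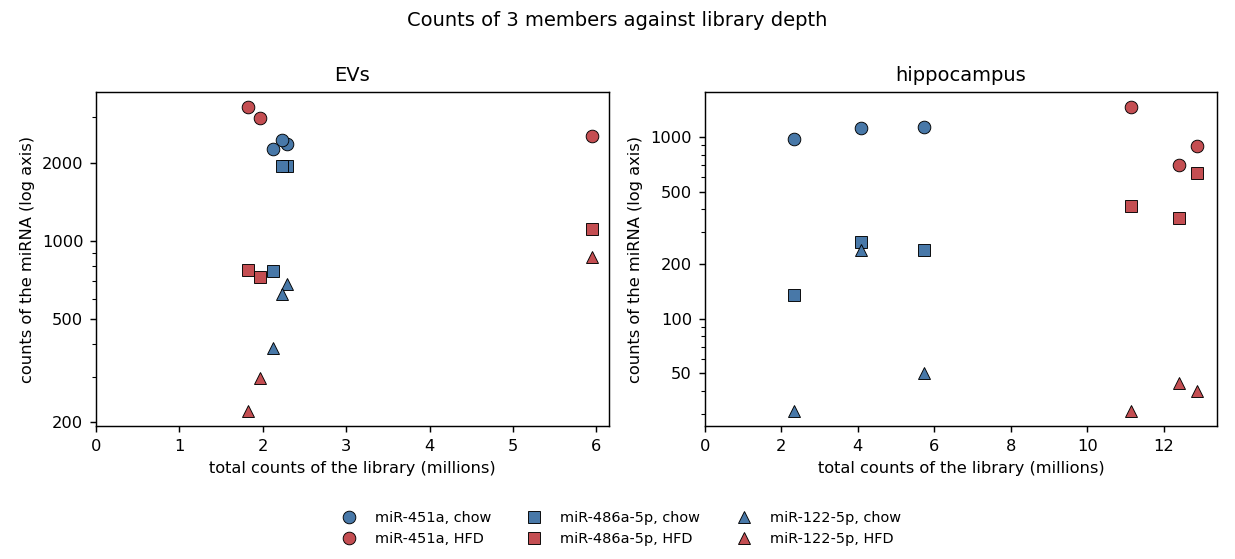
Raw counts (log axis) of miR-451a (circles), miR-486a-5p (squares) and miR-122-5p (triangles) against the total counts of each library, for EVs (left) and hippocampus (right), blue for chow and red for HFD. In hippocampus miR-451a stays between 704 and 1453 counts while the totals run from 2331091 to 12874600.

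Other miRNAs that red cells carry gave no call with diet in the edgeR fits. Of 9 listed, 8 were tested in each sample type and 0 were called in either by edgeR. At an unadjusted p under 0.05 there were 2 in EVs, miR-15a-5p and miR-16-5p, of which DESeq2 called the latter, and 1 in hippocampus, miR-25-3p, which DESeq2 and limma-voom called. Their median difference was 0.54 in EVs and −0.19 in hippocampus, and the summed level of the list was 3183 to 4538 CPM in chow EVs, 3580 to 4066 CPM in HFD EVs, 1566 to 1941 CPM in chow hippocampus and 1545 to 1599 CPM in HFD hippocampus. miR-16-5p, which restrains the cell cycle and is made by most cells as well, differed by 1.12 (SE 0.36, adjusted p = 0.100) in EVs and by −0.46 (SE 0.22, adjusted p = 0.216) in hippocampus. The miR-106a-363 cluster had 2 other tested members in each sample type, miR-19b-3p and miR-92a-3p. There were 0 calls by edgeR, DESeq2 or limma-voom, with 0 at an unadjusted p under 0.05. miR-92a-3p is also on the list above and is encoded on chromosome 14 as well as X, so its reads need not come from this cluster. The cluster's other entries reached at most 6.01 CPM in EVs and 0.66 CPM in hippocampus and were not tested.

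Of 6 other miRNAs listed for liver, 5 were tested in each sample type. In hippocampus 1 was lower, miR-148a-3p (−1.40, SE 0.26, adjusted p = 0.0200), which adipose tissue also makes in quantity, while 3 had an unadjusted p under 0.05 and DESeq2 and limma-voom each called 2, adding miR-101a-3p. In EVs 0 were called by edgeR (2 at an unadjusted p under 0.05, 1 by DESeq2, miR-148a-3p, and 0 by limma-voom). There miR-148a-3p differed by −1.28 (SE 0.35, adjusted p = 0.0772). miR-101a-3p, a miRNA not particular to liver, had no edgeR call in either sample type, with −0.73 in hippocampus (adjusted p = 0.0513) and −0.68 in EVs (0.132). Its relative miR-101b-3p had −0.52 (0.0968) and −0.67 (0.229). The hepatic and intestinal miR-192-5p and miR-194-5p differed by −0.14 and −0.08 in hippocampus and by 0.22 and 0.27 in EVs.

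Of 7 leukocyte miRNAs tested in EVs, edgeR called 4 higher on HFD, where it called 3.34% of all miRNAs higher. They were the myeloid miR-223-3p (3.12, adjusted p = 0.0226) and miR-223-5p (1.40, 0.0483), miR-342-3p (2.53, 0.0233) and miR-142a-5p (1.94, 0.0483). The other 3 were not called, with 2.43 for miR-142a-3p (0.0511), 2.43 for miR-150-5p (0.0845) and 0.17 for miR-155-5p (0.924). DESeq2 called 6 and limma-voom 4. The summed list was at 1067 to 1980 CPM in chow and 2999 to 7352 CPM in HFD EVs. All 4 calls were lost, as was every other call in EVs, in the fits that left out library 1 or library 2 of either diet. In hippocampus edgeR called 0 of 6 (2 at an unadjusted p under 0.05, and DESeq2 called 1, miR-223-3p), with a median of −0.76 and a sum of 344 to 837 CPM in chow and 323 to 363 CPM in HFD. There miR-223-3p was at 0.880, 4.90 and 18.7 CPM in chow and 0.906, 1.35 and 1.01 CPM in HFD, and chow library 3 was the highest for both it and miR-451a. The part of leukocytes in the member values was not tested.

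Of 5 platelet and endothelial entries tested in hippocampus, 2 were higher on HFD, miR-126a-5p and miR-126b-3p, with 0.90 each (adjusted p = 0.0489). These entries share their reads, so they are 1 measurement listed under 2 names, which the list's sums also hold double. DESeq2 and limma-voom called the same pair, and 3 entries had an unadjusted p under 0.05. Over all 552 miRNAs in hippocampus edgeR called 24 higher. The summed list stood at 4763 to 5538 CPM in chow and 6400 to 6453 CPM in HFD. In EVs 1 of 5 was lower, miR-126a-3p (−1.37, adjusted p = 0.0217), where edgeR called 4 of all 389 miRNAs lower. At an unadjusted p under 0.05 there were 4 of the 5, and DESeq2 and limma-voom each called 2, adding miR-126b-5p (edgeR −1.64, adjusted p = 0.0511). Sums were 4345 to 5863 CPM in chow and 3189 to 5094 CPM in HFD EVs. No marker of this list was called lower in the HFD hippocampus. The part of vessels and platelets in the member values was not tested.

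Brain and adipose lists were read for the same purpose. By edgeR, DESeq2 and limma-voom 0 of 6 brain miRNAs were called in hippocampus (1 at an unadjusted p under 0.05 by edgeR, miR-128-3p), where their sum was 268900 to 448200 CPM in chow and 274600 to 340500 CPM in HFD, and in EVs 1 of 4 was higher, miR-9-3p (3.39, adjusted p = 0.0196), with 2 at an unadjusted p under 0.05 and 2 called by DESeq2, adding miR-9-5p. Of 5 adipose miRNAs, miR-193b-3p was lower in the HFD hippocampus (−1.76, SE 0.37, adjusted p = 0.0242) and miR-143-3p in HFD EVs (−1.97, SE 0.32, adjusted p = 0.0217). In hippocampus 3 of the 5 had an unadjusted p under 0.05, and DESeq2 and limma-voom each called 2, adding miR-30a-5p (edgeR −0.95, adjusted p = 0.0505). In EVs DESeq2 and limma-voom called miR-143-3p alone, as edgeR did. The summed adipose list was at 46150 to 55650 CPM in chow and 27890 to 31460 CPM in HFD hippocampus. In EVs it was at 39460 to 56790 and 24400 to 39550 CPM. Their part in the member values was not tested.

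Members were left out of the search for miRNAs most like miR-451a over the 6 hippocampus libraries. The closest of the rest were not on the list of other red cell miRNAs. By Pearson's r of log2 CPM among 365 miRNAs, they were let-7e-5p (0.966), the muscle miRNA miR-1a-3p (0.962) with miR-1b-5p (0.962), miR-488-3p (0.957) and miR-30a-5p (0.947). Against these, miR-144-5p had 0.807, miR-486a-5p 0.803, miR-122-5p 0.748 and miR-144-3p 0.614. The 6 points fall into 2 diets that also differ in depth, so these values are a description.

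For miR-122-5p the closest non-members in hippocampus were miR-30c-2-3p (0.985), miR-193b-3p (0.982), miR-582-3p (0.976), miR-490-3p (0.976) and miR-3071-5p (0.966). The last shares its reads with miR-136-3p there, so it need not be a measurement of its own. miR-193b-3p, linked to brown fat, stood at 32.8, 13.0 and 21.0 CPM in chow and 8.07, 6.19 and 5.48 CPM in HFD, with chow library 1 highest and chow library 2 lowest of its group, as for miR-122-5p. In EVs the closest to miR-451a among 325 non-member miRNAs were miR-3535 (0.853), miR-29a-5p (0.837), miR-193b-3p (0.784), let-7f-2-3p (0.765) and miR-3470b (0.764). The other red cell members reached at most 0.538 there, and miR-122-5p 0.144.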

How the data were processed

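Small RNA was sequenced from 6 adipose tissue EV and 6 hippocampus libraries. The deposited values are raw read counts per miRNA, per the file headers. Per the submitters' processing notes Bowtie was used, and the sources used here do not give its role, the build or how multiply matching reads were counted. In the hippocampus table, 5 entries with blank values were left out, columns headed LFD were taken as chow by their numbers, and 1 column of per-sample values matched no sample and was not used.

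Counts were filtered with filterByExpr, scaled with TMM and tested with edgeR 4.0.16 (quasi-likelihood F test, robust, two-sided, R 4.3.3) over all miRNAs with Benjamini-Hochberg adjustment. The SE is the log2 fold change over the square root of F. Diet was tested within each sample type, and contrasts between sample types in a fit of all 12 libraries. Differences in the text are log2 fold changes, HFD against chow or EVs against hippocampus. DESeq2 1.42.0, limma-voom (limma 3.58.1), other scalings, no filter, shared reads counted once, a replicate block and leaving out each library were alternatives. Replicates were compared by chi-square over miRNAs with at least 10 counts, giving 80.4 to 704 per degree of freedom over 12 pairs, so none was a repeat.

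The members, lists and tests were chosen with earlier results of these data known. All 9 members are named. By rule, called members of a list are named or, where none was called, up to 4 of the most abundant. Likeness names the 5 miRNAs with mean CPM of at least 10 and the highest Pearson r (pseudocount 0.5 CPM). The 9 members could not be among these 5. Other list members named were chosen after their values were seen. Floors express counting error alone, because reads lacking molecular identifiers need not be separate molecules.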

Additional observations from a re-analysis of the deposited data

How the results depend on the processing

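For counts of called miRNAs and summed shares, 177 of 212 alternatives stayed within 1.5 times the main value or the replicate spread. For single members, 750 of 792 kept direction and call, 12 lost the call, 22 gained it and 8 changed sign. The cause was not tested for any of these. In EVs the 17 calls over all miRNAs became 55 with DESeq2, 29 with median-ratio scaling, 38 with library totals, 56 without the filter, 31 with shared reads kept once and 38 when all 12 libraries were fitted together, and 0 to 21 when a library was left out. The 0 members called became 6, 4 and 3 with DESeq2, no filter and all 12 libraries, and stayed at 0 without single libraries. In hippocampus the 65 calls became 109, 33 and 29 with DESeq2, library totals and all 12 libraries (8 to 123 without single libraries), and the 3 member calls became 0 to 3. The 30 calls of the difference between sample types became 76 with DESeq2 and 46 with median-ratio scaling (15 to 42 without single libraries), and the 0 member calls became 0 to 2. Library totals moved the median of all miRNAs from −0.13 to 0.16 in EVs and from −0.13 to 0.03 in hippocampus. Median-ratio scaling moved that of the difference from 0.23 to −0.16. EV miR-451a, −0.14, changed sign with library totals (0.22), no filter (0.065), shared reads kept once (0.038), and without chow library 3 (0.16) or HFD library 1 (0.26), within −0.44 to 0.26 over the libraries left out. The difference for miR-363-3p, 0.55, changed sign when chow EV replicate 2 (−0.15) or 3 (−0.23) or HFD EV replicate 2 (−0.05) was left out, within −0.23 to 1.28. The EV share of red cell members, HFD minus chow with every entry counted, was −0.0866 percentage points. It was −0.251 without the most abundant miRNA and −0.0152 with shared reads counted once. That of liver members was −0.0229, and it was −0.0531 and −0.0114 in the same settings. Same-numbered chow and HFD libraries did not deviate together (r of −0.192 to 0.00956 in EVs and −0.353 to 0.0905 in hippocampus), so the numbers are not taken to pair them. Whether same-numbered EV and hippocampus libraries of a diet belong together was not tested. The main fit of all 12 libraries treats them as separate. With the replicate block, 9 miRNAs were called in EVs and 35 in hippocampus, and 0 and 3 members. Depth limits miR-363-3p and both arms of miR-144 most.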
